A study of Mus musculus with 9 samples.

Results

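The genes described here are the brighter part of a comparison between reporter-positive thymic cells (ZsG plus) and reporter-negative cortical thymic epithelial cells (ZsG minus cTEC). They were all genes whose mean log2 intensity reached 10, an intensity of 1024, in at least one of these groups. Of 18194 genes measured, 7534 met this rule: 4546 reached it in both groups, 841 in ZsG plus only and 2147 in ZsG minus cTEC only. The rule uses levels and not differences, but a gene that qualifies through 1 group alone tends to differ, so counts are given separately for the genes bright in both groups. At the limit, Mpzl1 (8.21 in the dimmer group) and Atp10b (7.27) stood just inside, and Rwdd3 (5.05) and Col6a1 (9.60) just outside.

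RNA from sorted cells was read on 9 one-colour expression arrays, 3 per group. The third group, ZsG minus mTEC (medullary thymic epithelial cells), entered the fit and is quoted for reference. All mice had the genetic background C57BL/6, were 8 to 20 weeks old, and the reporter was a bacterial artificial chromosome with ZsGreen placed at the start codon of Tslp. Such a transgene reports the activity of the sequence on the artificial chromosome and not the resident gene itself. The labels do not give the sort gates, say whether ZsG plus cells came from cortex or medulla, or say that arrays stand for separate animals. The p-values therefore cover the spread among these samples alone, and that spread may be technical. A further label calls every sample keratinocytes; the group names used here follow the titles.

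Thymic epithelium guides T cell development in 2 compartments. Cortical cells carry proteases and a special proteasome that make the peptides for positive selection, and they supply chemokines and Notch ligands to immature thymocytes. Medullary cells use the regulators Aire and Fezf2 to express genes of many other tissues so that self-reactive T cells are removed, and some of them go on to resemble the outer layers of skin. TSLP is a cytokine of barrier epithelia that acts on dendritic cells.

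Median intensity over all probe sets was 230 to 316 in ZsG plus and 376 to 404 in ZsG minus cTEC. The 3' probe set of Gapdh exceeded its 5' probe set by 6.71 to 10.6 times in ZsG plus and by 4.55 to 5.60 times in ZsG minus cTEC, and its part in the results was not tested. Probe sets for the bacterial controls PheX and DapX read from 3.77 to 341, so intensities in that range are near background, and where one group reads mostly within it the size of a difference is not settled. Differences are log2 values, ZsG plus minus ZsG minus cTEC, with a standard error after the ± sign. Levels are geometric means over 3 arrays, and a gene is called where limma's Benjamini-Hochberg adjusted p over all 18194 genes was below 0.05. Values of 3 arrays follow the order of replicates 1, 2 and 3.

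Among the bright genes, 82 were higher in ZsG plus and 133 were lower. These are 1.09% and 1.77% of the 7534, against 0.599% higher and 1.14% lower over all genes tested and 0.253% and 0.704% among the dimmer genes. Together they are 2.85%, against 0.957% of the dimmer genes. All 215 had arrays that did not overlap between the groups. Of the 7534 bright genes, 867 lay higher and 1484 lower without overlap, against 1802 (9.9%) and 2435 (13.4%) of all 18194 genes. Of the 867, 384 were bright in ZsG plus only, and of the 1484, 987 were bright in ZsG minus cTEC only. Most calls were in genes bright in 1 group: 57 of the 841 bright in ZsG plus only rose, and 126 of the 2147 bright in ZsG minus cTEC only fell. Among the 4546 genes bright in both groups, 25 rose and 7 fell, a share of 0.704%, which is below the 1.74% called over all genes. The median difference over all bright genes was −0.42, against −0.14 over all genes and −0.12 in those bright in both.

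**Figure D1:**
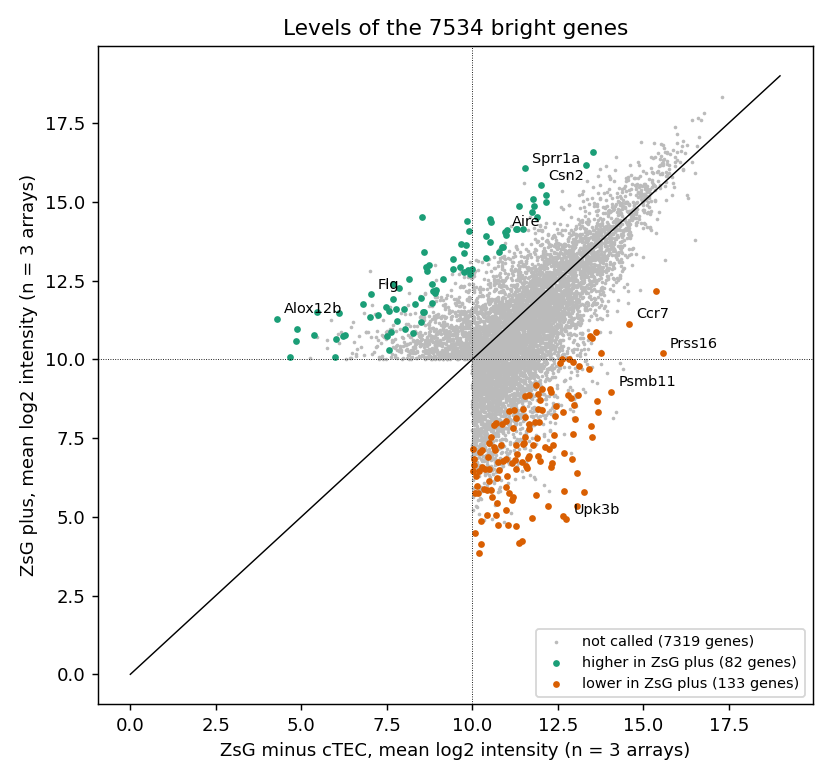
Each point is 1 of the 7534 bright genes, with its mean log2 intensity in ZsG minus cTEC (x axis) and in ZsG plus (y axis), 3 arrays each. Coloured points are the 82 genes called higher and the 133 called lower; dotted lines mark the limit of 10, and the solid line marks equal levels.

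The counts depend on the estimate of spread, which is pooled over groups although the ZsG plus arrays vary more. In simulated data with such unequal spread the same fit also called 56 unchanged genes, a share of its calls far above the threshold. Single calls are therefore less certain than their adjusted p. The simulation took each gene's measured spread in a group as its true spread and changed few genes, so that share need not hold here. It called 0 of 50 genes changed by a log2 of 1, 8 of 50 changed by 2, 36 of 50 changed by 4 and 46 of 50 changed by 6. A gene or list without calls may thus still differ. Without ZsG minus cTEC replicate 1, or without replicate 2, limma called 0 bright genes (448 higher and 795 lower, then 432 higher and 813 lower, at an unadjusted p under 0.05). Without ZsG minus cTEC replicate 3 it called 6 higher and 11 lower, and without ZsG minus mTEC replicate 1, 2 or 3 it called 12, 11 or 9 higher and 39, 40 or 26 lower. Without ZsG plus replicate 1, 2 or 3 it called more: 101, 138 or 110 higher and 311, 337 or 182 lower. With array weights, which count the ZsG plus arrays for less, 5 rose and 24 fell, and in a fit of only the 6 arrays 0 passed (459 higher and 897 lower at an unadjusted p under 0.05). The share of calls that were higher was 38.1%, but 51.4% after repeated quantile normalization and 65.3% or 61% with arrays centred on the median of all probe sets or of the genes tested, which moved the median over all genes from −0.14 to 0.11, 0.40 and 0.32.

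The spread between ZsG plus arrays narrowed as genes became brighter. For bright genes whose mean over both groups lay under 10, the median SD was 1.64 over the ZsG plus arrays and 0.55 over the ZsG minus cTEC arrays. At a mean of 14 or more, in 409 genes, it was 0.46 and 0.23. The precision of the difference followed, with a median standard error of 0.91 in the dimmest class and 0.52 in the brightest.

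**Figure D2:**
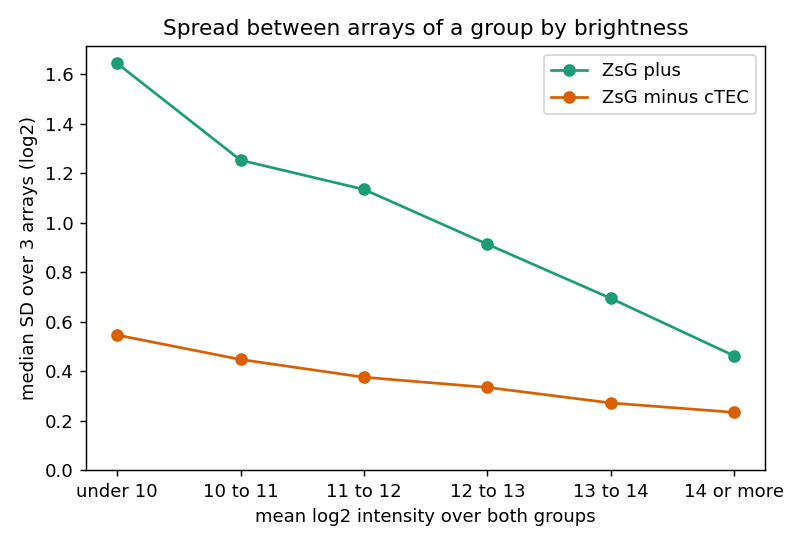
Median SD between the 3 arrays of a group (log2, y axis) for bright genes in classes of mean log2 intensity over both groups (x axis). The ZsG plus line falls from 1.64 to 0.46 and stays above the ZsG minus cTEC line, which falls from 0.55 to 0.23.

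The cortical epithelial genes Prss16, Psmb11, Pax1 and Enpep were bright in ZsG minus cTEC and fell in ZsG plus, while 11 other bright cortical markers did not pass. Prss16, a serine protease of cortical epithelium that shapes the peptides shown on MHC class II, read 1543, 2069 and 505 in ZsG plus and 49672, 41699 and 55909 in ZsG minus cTEC. The groups were far apart, with a difference of −5.38 ± 0.64 (limma adjusted p = 0.0117), or a level 41.6 times higher in ZsG minus cTEC. Psmb11, the catalytic subunit of the thymoproteasome, read 183, 2855 and 245 against 18505, 12244 and 22292. Replicate 2 of ZsG plus was thus well above the other ZsG plus arrays yet below all ZsG minus cTEC arrays, and the difference was −5.09 ± 1.03 (limma adjusted p = 0.0452). On the ZsG minus mTEC arrays Prss16 read 2556, 4051 and 2513 and Psmb11 726, 2104 and 643. In bulk samples such as these, fewer cells of a type and less RNA per cell cannot be told apart.

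Of 16 cortical markers measured, 15 were bright, 4 fell and 0 rose, and the median difference was −2.43 over the 16 and −2.49 over the 15. The other called members were Pax1, a transcription factor of pharyngeal pouch development, and Enpep, a surface aminopeptidase. Pax1 read 84, 198 and 387 in ZsG plus and 13176, 7811 and 15232 in ZsG minus cTEC, a difference of −5.97 ± 0.67 (limma adjusted p = 0.00939), with 2 of the 3 ZsG plus values in the range of the bacterial controls. Enpep read 16.1, 156 and 12.2 against 5397, 2444 and 3087; all 3 of its ZsG plus values lie within that range, so the size of its difference, −6.78 ± 0.95, is not settled. Ctsl, the cathepsin that trims class II peptides in cortical cells, did not pass: it read 37160, 15310 and 5029 against 73279, 98351 and 113762 (−2.72 ± 0.74, limma adjusted p = 0.105). Ccl25, a chemokine that draws thymocyte precursors, differed by −1.16 ± 0.50 (limma adjusted p = 0.254), from 80372 to 35925, and the simple-epithelial keratin Krt18 by 0.34 ± 0.54. The median over the 15 ran from −2.71 to −1.95 over all settings tried.

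Upstream sequence was searched for the letters GACGC, a core recognised by the thymic epithelial factor Foxn1, and for their reverse complement GCGTC. The called genes Psmb11, Pax1, Enpep and Hoxa3 are shown because they hold either match within 100 bases before the annotated start. Capitals mark that match. The sequences are from RefSeq on GRCm38.p6, each read 5′ to 3′ on the gene's strand: Psmb11 at chr14:54625210-54625309 (+), Pax1 at chr2:147364894-147364993 (+), Enpep at chr3:129332750-129332849 (−) and Hoxa3, a patterning factor of thymus formation, at chr6:52213068-52213167 (−).
Psmb11: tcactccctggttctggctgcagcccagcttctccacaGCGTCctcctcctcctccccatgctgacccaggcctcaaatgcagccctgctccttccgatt
Pax1: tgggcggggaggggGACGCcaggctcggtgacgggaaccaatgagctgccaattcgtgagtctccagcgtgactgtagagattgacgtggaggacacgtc
Enpep: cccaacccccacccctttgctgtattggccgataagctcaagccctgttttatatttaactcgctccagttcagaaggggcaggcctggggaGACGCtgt
Hoxa3: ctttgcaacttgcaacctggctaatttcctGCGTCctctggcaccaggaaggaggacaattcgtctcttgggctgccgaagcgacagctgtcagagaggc
This motif was common among bright genes as a whole: it lay in 21.3% of the 136 promoters of genes that fell, in 22% of the 7880 promoters of all bright genes and in 12.4% of all 32851 promoters. A match of so few letters is a description and not a binding site. Hoxa3 itself read 126, 391 and 144 in ZsG plus against 7919, 2575 and 7541 in ZsG minus cTEC, a difference of −4.80 ± 0.70 (limma adjusted p = 0.0225).

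The medullary genes Fezf2, Aire and Hdc rose, while Ccl17, also on the medullary list, and Ccr7, on none of the lists, fell. Fezf2, a zinc finger regulator of tissue-restricted antigens, read 32296, 15790 and 22884 in ZsG plus and 756, 1950 and 2116 in ZsG minus cTEC (3.96 ± 0.61, limma adjusted p = 0.0258). Aire read 15751, 23622 and 13180 against 1236, 2419 and 2570 (3.11 ± 0.55, limma adjusted p = 0.0358). Hdc, which makes histamine, read 5975, 7429 and 6797 against 589, 1378 and 1174 (2.77 ± 0.54, limma adjusted p = 0.0423). In all 3 genes every ZsG plus array was above every ZsG minus cTEC array, and the ZsG minus mTEC arrays read 16623 to 23680, 17983 to 23992 and 10609 to 14676. Tnfrsf11b, osteoprotegerin, the decoy receptor that binds the medullary growth signal RANKL, rose by 3.24 ± 0.55, from 1453 to 13684 (limma adjusted p = 0.0334).

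Of 17 medullary regulators and markers, all of them bright, 3 rose and 1 fell. The one that fell was Ccl17, a ligand of CCR4, with 2177, 732 and 362 against 8436, 17909 and 8669 (−3.72 ± 0.75, limma adjusted p = 0.0452). Its adjusted p ran from 0.0170 to 0.165 over the 19 alternatives, and its call was lost in 13 of them. Other calls were lost in many alternatives too. Psmb11 was called in 6 of the 19, Hdc in 9, Aire and Fezf2 in 10 each, and Prss16 in 14. Of the envelope genes described below, Rptn, Ivl and Hrnr were called in 10 each, Sprr1a in 15 and Flg in 16. Ccl22, the other CCR4 ligand, had levels of 16470 and 42754 and did not pass (−1.38 ± 0.59, limma adjusted p = 0.249). Ccr7, the receptor that leads thymocytes and dendritic cells into the medulla, read 1920, 3432 and 1724 against 20331, 37505 and 19630, a difference of −3.45 ± 0.57 (limma adjusted p = 0.0287). The ZsG minus mTEC levels of Ccl17, Ccl22 and Ccr7 were 1625, 11051 and 3280, against 10941, 42754 and 24645 in ZsG minus cTEC. In these arrays the 3 genes were thus brightest in ZsG minus cTEC. Ctss, the class II protease of medullary and dendritic cells, had levels of 26345 and 28022, a difference of −0.09 with an interval of −1.26 to 1.08.

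Cornified envelope genes, whose proteins are crosslinked into the tough shell of dying skin cells, showed the highest median among bright genes of the lists examined, at 3.36. Sprr1a, a small proline-rich envelope precursor, read 67282, 98075 and 49665 in ZsG plus and 2166, 2540 and 4796 in ZsG minus cTEC. The lowest ZsG plus array was thus far above the highest ZsG minus cTEC array, and the gene rose by 4.53 ± 0.56, or 23.2-fold (limma adjusted p = 0.0129). Rptn, repetin, a filaggrin-like envelope protein, read 34421, 29949 and 42157 against 2711, 2647 and 5879, a rise of 3.34 ± 0.54 (limma adjusted p = 0.0273). Both are bright in each group, so their folds do not lean on background signal. On the ZsG minus mTEC arrays Sprr1a read 29240, 33131 and 22849 and Rptn 14687, 15276 and 16918, and neither differed from ZsG plus past the threshold (limma adjusted p of 0.361 and 0.390), a comparison in which 0.22% of all genes passed and which shares the ZsG plus arrays.

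Flg, filaggrin, which bundles keratin in the outer epidermis, read 4914, 4140 and 3963 in ZsG plus and 106, 138 and 154 in ZsG minus cTEC, a rise of 5.05 ± 0.51 (limma adjusted p = 0.00781). Hrnr, a related fused-type S100 protein, read 5207, 2779 and 2032 against 348, 140 and 344, and Ivl, involucrin, read 935, 1666 and 3219 against 64.9, 58.8 and 106. They rose by 3.59 ± 0.61 and 4.53 ± 0.87 (limma adjusted p = 0.0329 and 0.0417). The ZsG minus cTEC values of Flg, Ivl and part of those of Hrnr lie within the range of the bacterial controls, so these folds are less certain than those of Sprr1a and Rptn. Of 21 cornified envelope genes measured, 12 were bright and 5 of these rose; 6 of the 21 rose and 0 fell, with a median of 2.25 over the 21, below the 2.40 of tissue-restricted antigens. Krtdap and Sbsn, secreted products of differentiating keratinocytes, had levels of 5192 and 7601 against 813 and 1593 and did not pass (limma adjusted p = 0.0673 and 0.102). With array weights 2 of the 12 were called, and after quantile normalization 7.

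The upstream sequences of the 5 bright envelope genes that rose are shown because they lie on the same chromosome and each holds the letters TATAAA, the core of the TATA box, within 100 bases before the annotated start. Capitals mark the match, and the sequences are from RefSeq on GRCm38.p6, 5′ to 3′ on the gene's strand: Sprr1a at chr3:92485882-92485981 (−), Rptn at chr3:93393599-93393698 (+), Flg at chr3:93273446-93273545 (+), Ivl at chr3:92573736-92573835 (−) and Hrnr at chr3:93319649-93319748 (+).
Sprr1a: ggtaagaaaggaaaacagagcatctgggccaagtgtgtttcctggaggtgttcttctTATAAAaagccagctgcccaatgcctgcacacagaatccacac
Rptn: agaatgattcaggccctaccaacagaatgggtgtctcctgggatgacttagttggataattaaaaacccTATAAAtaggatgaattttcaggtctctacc
Flg: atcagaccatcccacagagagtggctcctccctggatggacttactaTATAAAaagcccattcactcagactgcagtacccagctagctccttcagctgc
Ivl: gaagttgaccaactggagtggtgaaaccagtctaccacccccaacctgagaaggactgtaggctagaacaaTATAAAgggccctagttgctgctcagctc
Hrnr: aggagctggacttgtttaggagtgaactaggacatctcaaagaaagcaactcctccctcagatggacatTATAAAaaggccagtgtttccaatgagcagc
The match starts 43, 31, 53, 29 and 31 bases before the annotated start in Sprr1a, Rptn, Flg, Ivl and Hrnr. On either strand, TATAAA lay in this window in 15 of 72 promoters (20.8%) of the bright genes that rose, of which 62 of 82 had an entry. It lay in 4 of 136 promoters (2.94%) of those that fell, of which 101 of 133 had an entry, in 3.22% of the promoters of all bright genes and in 5.56% of all promoters. These shares describe the letters of the sequence and were not tested.

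Of the keratins, Krt10, Krt16, Krt77 and Krt79 rose and 11 other bright ones did not pass. Krt10, the keratin of the suprabasal epidermis, read 14802, 18628 and 14411 against 2050, 1366 and 3031, a rise of 2.96 ± 0.52 (limma adjusted p = 0.0358). Krt16, which is induced in activated epidermis, had a level of 5935 against 284 (4.38 ± 0.71, limma adjusted p = 0.0273), and Krt77 and Krt79, keratins of sweat duct and hair follicle regions, rose by 4.41 ± 0.84 and 3.97 ± 0.79. The ZsG minus cTEC levels of Krt16, Krt77 and Krt79 lie within the range of the bacterial controls, so the sizes of these rises are not settled. Of 21 keratins measured, 15 were bright, 4 rose and 0 fell, with a median of 1.84 over the 21. The brightest that did not pass was Krt18, followed by Krt8, its partner in simple epithelia, at 66080 against 18476 (1.84 ± 0.48, limma adjusted p = 0.0951), and Krt17, at 20670 against 5331 (limma adjusted p = 0.103).

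Barrier enzymes and protease inhibitors gave 3 further rises among 10 bright genes of 22 measured, and 0 falls, with a median of 2.05 over the 22. Alox12b, the lipoxygenase that prepares ceramides for the skin barrier, read 3303, 6413 and 734 against 30.2, 17.1 and 14.1. Its difference of 7.01 ± 0.83 was the largest rise among bright genes (limma adjusted p = 0.0114), but the ZsG minus cTEC values are at the level of the bacterial controls, so its size is not settled. Spink5, the inhibitor that restrains epidermal kallikreins, rose from 361 to 3932 and Serpinb12, a keratinocyte serpin, from 223 to 2399 (3.44 ± 0.63 and 3.43 ± 0.55). Asprv1, the protease that processes filaggrin, was far brighter, at 30576 against 7328, and did not pass (2.06 ± 0.60, limma adjusted p = 0.119). Cst6, cystatin M/E, an inhibitor of skin cathepsins, rose from 1348 to 9556 (2.83 ± 0.52, limma adjusted p = 0.0396). Ctse, an endosomal aspartic protease, read 111736, 80601 and 77511 against 19165, 15141 and 23655, without overlap, and did not pass (2.22 ± 0.50, limma adjusted p = 0.0629).

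**Figure D3:**
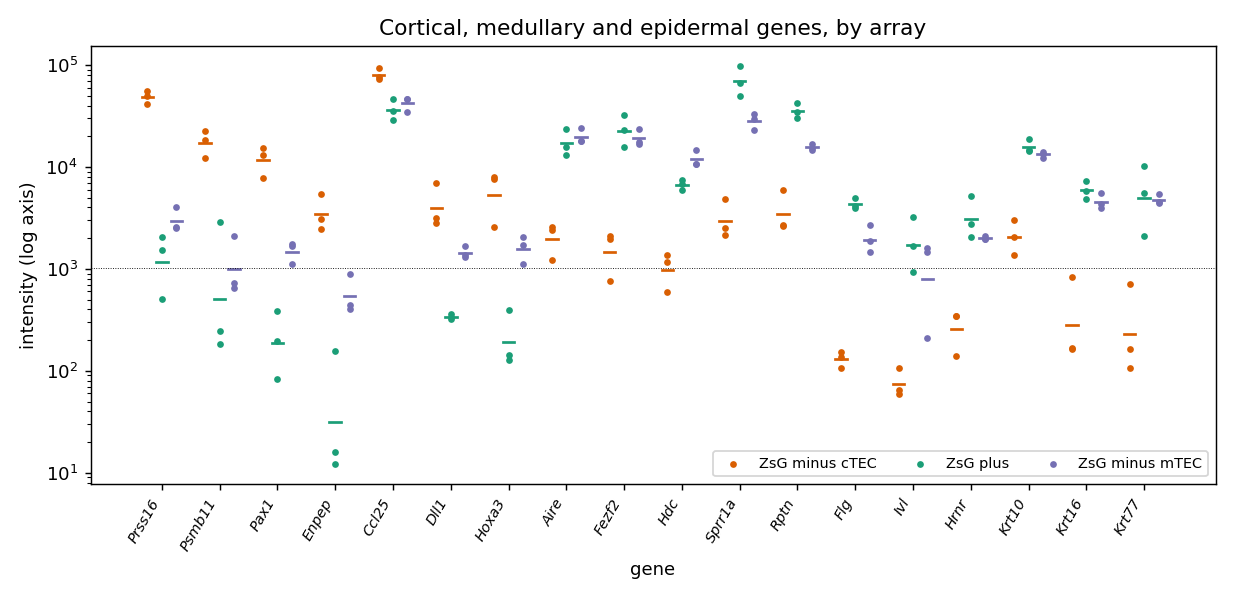
Intensity on each array (points, log axis) and geometric mean (short lines) for cortical, medullary and epidermal genes in ZsG minus cTEC, ZsG plus and ZsG minus mTEC, 3 arrays each. The dotted line marks 1024. Prss16 lies at 41699 to 55909 in ZsG minus cTEC and at 505 to 2069 in ZsG plus, while Sprr1a lies at 2166 to 4796 and at 49665 to 98075.

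Adhesion genes did not pass. Of 20 desmosome and tight junction genes measured, 16 were bright, and 0 rose or fell in limma (4 higher and 1 lower at an unadjusted p under 0.05). Dsp, desmoplakin, the link between desmosomes and keratin, had levels of 87507 and 41401 (1.08 ± 0.50), and Cldn7, a claudin, 8677 and 2281 (1.93 ± 0.53, limma adjusted p = 0.106). Of 15 hemidesmosome and basement membrane genes, all bright, 0 passed in limma (0 higher and 6 lower at an unadjusted p under 0.05), with a median of −1.38. Dst, a hemidesmosome plakin, and Lamb1, a laminin chain, differed by −1.85 ± 0.55 and −1.73 ± 0.61, and Itga6, the hemidesmosome integrin, by 0.49 ± 0.52.

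Of the bright genes that mark other tissues, 8 rose and 14 did not pass. Csn2, beta-casein of milk, read 45373, 33997 and 69040 in ZsG plus and 2928, 2657 and 8931 in ZsG minus cTEC, a rise of 3.53 ± 0.63 (limma adjusted p = 0.0358). Reg3g, an antibacterial lectin of gut, read 38698, 27480 and 50757 against 4877, 3286 and 6089 (3.04 ± 0.53, limma adjusted p = 0.0354). Pcp4, a calmodulin-binding peptide of Purkinje cells, rose from 699 to 9389, and Muc1, an apical mucin, from 464 to 4595. Of 35 tissue-restricted antigens measured, 22 were bright, 8 of these rose and 0 fell; 9 of the 35 rose, with a median of 2.40. Fabp9, a fatty acid binding protein of testis, had levels of 57473 and 6983 and did not pass (3.04 ± 0.66, limma adjusted p = 0.0572). The list was assembled with earlier results of these arrays known, so its direction is not independent evidence.

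Several bright rises lay outside the antigen list. Calcb, a calcitonin gene-related peptide of neurons, read 35982, 31938 and 22650 against 1963, 3126 and 3071 (3.48 ± 0.51, limma adjusted p = 0.0225). Saa1, an acute-phase protein of liver, read 21485, 17181 and 15131 against 1626, 2428 and 2205 (3.11 ± 0.49, limma adjusted p = 0.0267). Neither gene's arrays overlapped, and on the ZsG minus mTEC arrays they read 33434 to 33892 and 16562 to 18140. Adgb, the testis globin androglobin, rose from 1503 to 20942, Aoc1, the histamine-degrading diamine oxidase, from 3590 to 30213, and Igf1, the growth factor, from 3421 to 26196. Speg, a striated muscle kinase, rose by 3.49 ± 0.56 at its brightest probe set, but the other 3 of its 4 probe sets went the other way, and the mean of all 4 differed by −0.042. Fabp6, the ileal bile acid binding protein, and Pyy, a gut peptide hormone, were bright in ZsG plus only and rose by 4.81 ± 0.59 and 4.96 ± 0.84.

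**Figure D4:**
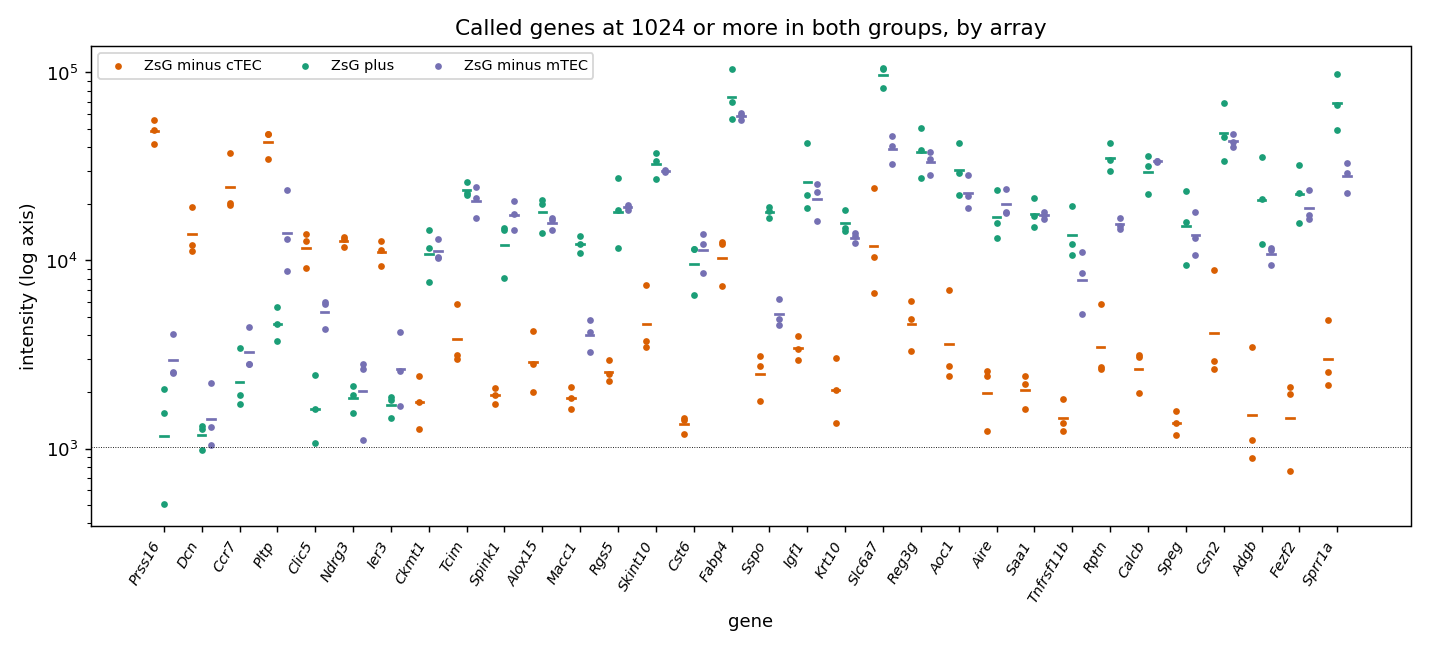
Intensity on each array (points, log axis) and geometric mean (short lines) for the 32 called genes bright in both groups, ordered by their difference, with the ZsG minus mTEC arrays beside them. The 7 genes at the left are lower in ZsG plus and the 25 at the right are higher, and in each of the 32 the ZsG plus and ZsG minus cTEC arrays do not overlap.

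The 7 genes that fell and were bright in both groups were Prss16 and Ccr7, described above, and Dcn, Pltp, Clic5, Ndrg3 and Ier3. Dcn, decorin, a matrix proteoglycan made by fibroblasts, read 1264, 987 and 1323 against 11174, 12105 and 19341 (−3.54 ± 0.55, limma adjusted p = 0.0258), although its other probe set pointed the other way. Pltp, which moves phospholipids between lipoproteins, read 3709, 5668 and 4584 against 46978, 34678 and 47176 (−3.21 ± 0.56, limma adjusted p = 0.0354). Ier3, an immediate early gene of stress responses, fell from 11058 to 1704, Clic5, an intracellular chloride channel protein, from 11676 to 1627, and Ndrg3 from 12695 to 1855. In the fit of only the 6 arrays, none of the 32 genes bright in both groups passed, with limma adjusted p from 0.0832 to 0.159. Their unadjusted 95% intervals excluded zero. The genes were chosen by calls from a fit that holds the same 6 arrays, so these intervals are not separate support.

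Genes bright in ZsG minus cTEC only included the largest falls, and most of these ended at background. Upk3b, a uroplakin of urothelium and mesothelium, read 53.6, 22.7 and 23 in ZsG plus against 8151, 4656 and 8631 (−7.83 ± 0.63, limma adjusted p = 0.00781). S1pr3, a receptor for sphingosine phosphate, and Gas1, a Hedgehog co-receptor, had levels of 40.4 and 32.5 against 8556 and 6467, and Pth, parathyroid hormone, 83.5 against 8623. In 58 of the 215 called bright genes the dimmer group lay below 100, so sizes and ranks among such genes are not settled. Dll1, a Notch ligand, read 336, 362 and 324, at the upper end of the range of the bacterial controls, against 6885, 2790 and 3122, a difference of −3.52 ± 0.55 (limma adjusted p = 0.026). Of 24 Notch and Wnt genes, 15 were bright; Dll1 fell and Nkd2, a Wnt antagonist, rose by 5.98 ± 1.15, with 1 of its 4 probe sets going the other way. Hey1, a Notch target, read 89.6, 20350 and 27.4 in ZsG plus against 9225, 7003 and 8948 and did not pass (−4.50 ± 1.99, limma adjusted p = 0.266). Only ZsG plus replicate 2 was high, above all ZsG minus cTEC arrays.

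Markers of thymocytes and fibroblasts moved with this comparison. Of 17 thymocyte markers measured, 17 lay lower in ZsG plus, 14 were bright, and 2 of these fell: Cd8a, the coreceptor, with 378, 382 and 565 against 8602, 6353 and 7951 (−4.13 ± 0.61), and Dntt, which adds bases to antigen receptor genes, with 1375, 180 and 130 against 14212, 10638 and 14740 (−5.36 ± 0.88). Rag1, the recombinase subunit, read 568, 3815 and 199 against 20660, 13152 and 13893 (limma adjusted p = 0.0737), and Ptprc, the leukocyte antigen CD45, 3577, 3901 and 4219 against 14501, 12873 and 14677 (limma adjusted p = 0.0971), both without overlap and without a call. The summed intensity of the 17 markers lay between 19731 and 31663 in ZsG plus, between 84112 and 106877 in ZsG minus cTEC and between 14680 and 25280 in ZsG minus mTEC. Of 12 fibroblast markers, 11 lay lower, 8 were bright and Dcn fell, with sums of 9127 to 32973, 54176 to 78561 and 10038 to 14032 in the same order. Among their collagens, Col3a1 read 1265, 683 and 7064 against 10780, 15198 and 12779 (−2.81 ± 0.86, limma adjusted p = 0.132). The part of thymocyte or fibroblast RNA in the falls of Ccr7, Dcn and the others was not tested. The 4 parathyroid markers summed to 839 to 10517 in ZsG plus and 11046 to 15312 in ZsG minus cTEC, and the 8 mesothelial markers to 10907 to 27515 and 12981 to 23511; the part of such cells in the falls of Pth and Upk3b was not tested. The 8 general epithelial markers summed higher in ZsG plus, to 303920 to 434423 against 177360 to 222687, with 7 of 8 higher and 0 called. Dendritic cell and macrophage markers were split, with 8 of 17 higher and 9 lower and sums of 111161 to 242610 in ZsG plus and 73453 to 131986 in ZsG minus cTEC. None of the measured B cell (8), erythroid (5) and endothelial (12) markers was bright in either group.

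The brightest genes of all did not pass the test. Malat1, a nuclear long noncoding RNA, was the brightest in both groups at 331559 and 160562 (1.05 ± 0.50), and Hnrnpab, an RNA-binding protein, came next in both at 230280 and 111572, with 3 of its 7 probe sets of the same sign. Cd74, the class II invariant chain, had levels of 197736 and 87710. B2m, the class I light chain, had levels of 197612 and 105231. The ZsG plus arrays were higher without overlap in each of these genes and in Adm, adrenomedullin, at 171412 against 62151, yet none passed (limma adjusted p from 0.183 to 0.356). After quantile normalization Hnrnpab differed by −0.050, Malat1 by −0.040 and B2m by −0.11, so their direction depends on scaling. Actb, the actin of all cells, had levels of 137198 and 101283.

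Antigen presentation genes were bright in both groups. Of 9 class II genes, all bright, 0 passed in limma (4 higher and 0 lower at an unadjusted p under 0.05), with a median of 1.02 that ran from 0.62 to 1.56 over the settings. H2-Ab1, a class II chain, read 110504, 101519 and 135173 against 40336, 50723 and 56218 (1.24 ± 0.49, limma adjusted p = 0.215), and H2-Aa had levels of 102952 and 59446. Of 14 class I pathway genes, limma called 0 (0 higher and 1 lower at an unadjusted p under 0.05), and the median of −0.29 changed sign under several settings, from −0.52 to 0.25. The epithelial surface protein Epcam read 40848, 42379 and 52536 against 12803, 9084 and 13922, without overlap, and did not pass (1.94 ± 0.49, limma adjusted p = 0.0867).

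General cell functions gave few calls. Of 14 ribosomal protein genes, Rpl14 fell, from 1234 to 17.8 at its only probe set, while Rpl4 and Rplp0 differed by 0.08 ± 0.52 and 0.00 ± 0.65. The ZsG plus level of Rpl14 lies within the range of the bacterial controls, so the size of its fall is not settled. Rpl14 was called in 8 of 18 alternatives. Of 19 oxidative phosphorylation genes 0 passed in limma (1 higher and 0 lower at an unadjusted p under 0.05), and Atp5a1 and Atp5b, both of ATP synthase, differed by 0.62 ± 0.49 and −0.13 ± 0.51. Of 21 cell cycle genes measured, 14 were bright and 0 passed in limma (0 higher and 5 lower at an unadjusted p under 0.05). Mki67, a marker of dividing cells, read 8498, 9435 and 37860 against 23234, 16402 and 16956, so ZsG plus replicate 3 alone was above the ZsG minus cTEC arrays. Of the 20 bright stress and immediate early genes Ier3 fell, and Zfp36, which destabilises cytokine messages, had levels of 97756 and 53007 without a call. Among 20 bright cytokine, chemokine and NF-kappaB genes 0 passed in limma (6 higher and 2 lower at an unadjusted p under 0.05), with Nfkbia, the inhibitor of NF-kappaB, at 107753 against 50339 (1.10 ± 0.50) and Cxcl1, a neutrophil chemokine, at 73287 against 25269 (1.54 ± 0.54).

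Further epithelial lists gave few calls too. Of 15 thymic epithelial identity genes, 13 were bright and Hoxa3 alone was called; Ehf, an epithelial ETS factor, had levels of 16136 and 4789 and Klf4, a Kruppel-like factor of skin, 14585 and 15326. Of 14 tuft, microfold and neuroendocrine markers, 11 were bright and 0 passed in limma (4 higher and 0 lower at an unadjusted p under 0.05), with a median of 1.15 and with Ccl9 at 10110 against 3138. Of 16 lysosomal proteases and their inhibitors, 12 were bright and Cst6 alone rose, and the median of 0.05 changed sign under some settings. Of 25 matrix and growth factor genes, 15 were bright and Igf1 rose, while Igfbp5, a binding protein that holds IGF, had levels of 4738 and 42442 and did not pass (−3.16 ± 1.17, limma adjusted p = 0.192). Of 14 interferon-stimulated genes, all bright, 0 passed in limma (1 higher and 4 lower at an unadjusted p under 0.05), with Ifit1, an RNA-binding antiviral protein, at 54754 against 16789 and Irf1, a transcription factor, at 9378 against 20971.

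For 578 of the 7534 genes, 569 of them bright in both groups, the 95% interval of the difference lay within 1.5 of zero. The narrowest intervals belonged to Pdcd4, a translation inhibitor, Serbp1, Pnrc1, Sec24b, Tpt1 and Jun. Pdcd4 read 39170, 43500 and 42021 against 38170, 33980 and 33866, a difference of 0.23 with an interval of −0.83 to 1.30. Pnrc1, a nuclear receptor coactivator, read 16165, 14640 and 12986 against 16065, 14955 and 14492, with an interval of −1.13 to 1.01. Even here, a rise of 2-fold is not excluded in either gene, and neither is a fall of 2-fold in Pnrc1.

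Tslp, whose start codon carries the reporter on the artificial chromosome, was not a bright gene. It read 526, 23.4 and 953 in ZsG plus and 264, 88.8 and 576 in ZsG minus cTEC, with overlap and with values in the range of the bacterial controls in both groups. The difference was −0.07 with an interval of −3.01 to 2.87, so a change of several-fold either way was not detectable here.

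**Figure D5:**
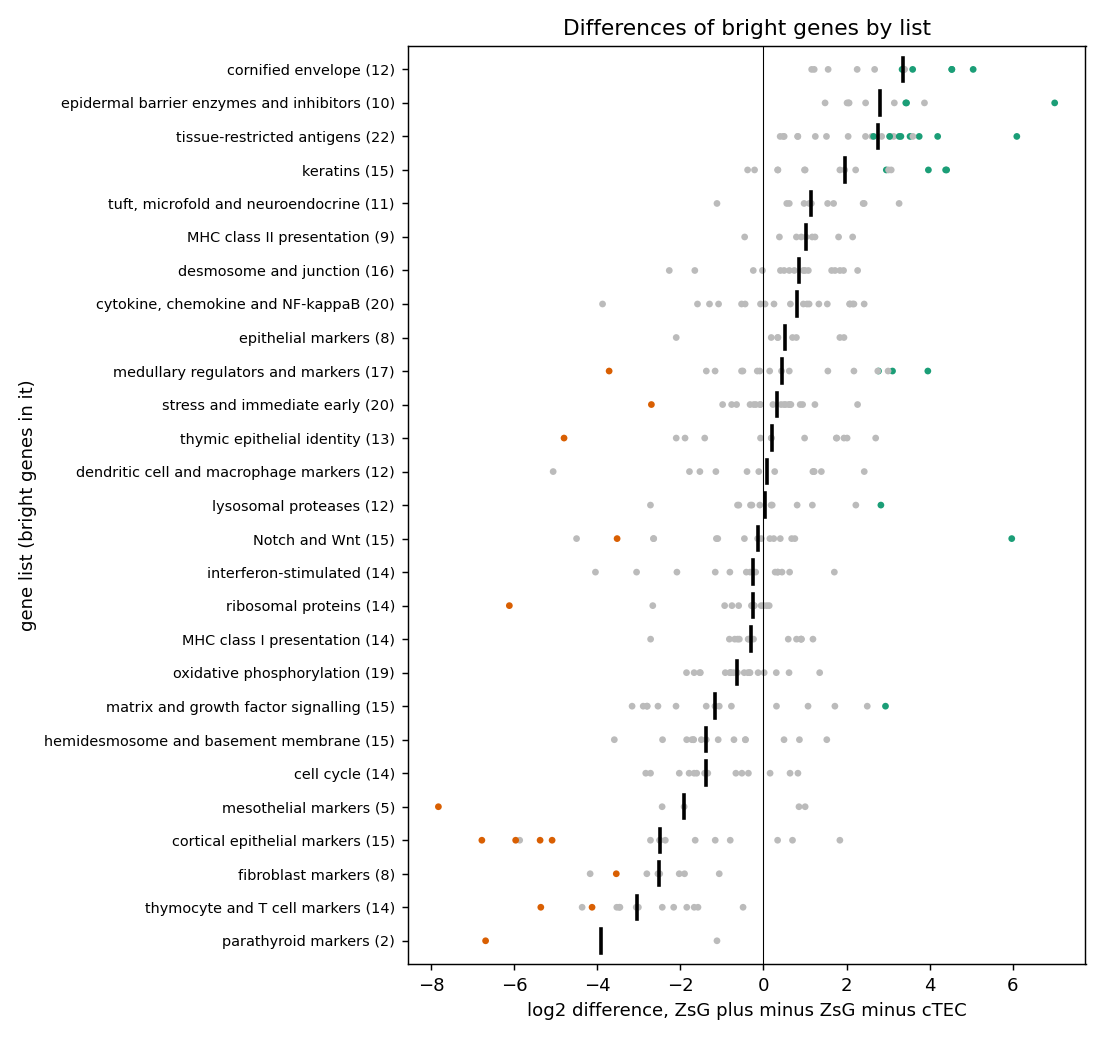
Each row is a gene list and each point a bright gene of it, placed by its log2 difference (x axis); black bars are medians over the bright genes, and coloured points are called genes. The number of bright genes is in brackets. Among bright genes the cornified envelope list lies highest, with 5 of 12 called higher. Over all measured genes its median is 2.25, below the 2.40 of tissue-restricted antigens. Cortical markers lie low, at a median of −2.49, with 4 of 15 called lower. Among bright genes the parathyroid (2 genes), thymocyte and fibroblast medians lie lower still, at −3.90, −3.04 and −2.52. Over all measured genes these medians are −0.75, −2.44 and −2.52, against −2.43 for cortical markers.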

How the data were processed

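Per the labels' protocols, 5 ng of RNA was amplified with an Ovation Pico kit and biotin-labelled. The authors deposited linear probe set intensity values for 45101 probe sets per array. The software that made them is not given in the sources used here. The mean of each array, after 2% of values was removed at both ends, came out equal. No detection calls were used here.

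The log2 of each intensity was used without an offset. Names came from a platform annotation table: 34958 probe sets had 1 symbol, 932 several and 9211 none. A gene was read from its brightest probe set by the mean of the 9 arrays. limma 3.58.1 in R 4.3.3 fitted 1 coefficient per group to all 9 arrays (residual degrees of freedom 6, prior 3.28), two-sided, with Benjamini-Hochberg adjustment over 18194 genes. The script was tested on simulated data, where calls of unchanged genes exceeded the share that the threshold allows. Figures were drawn with matplotlib 3.10.9.

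The members, lists and rules were chosen with earlier results of these data known. Named genes are Tslp, the 12 largest rises and falls among called bright genes and among those bright in both groups, the 8 brightest per group, up to 5 called members per list and direction with up to 3 of the brightest uncalled, and the 6 narrowest intervals; unnamed clones were passed over. Mpzl1, Atp10b, Rwdd3 and Col6a1 mark the limit of the rule. Alternatives changed the arrays, weights, scaling, variance model, offset, filter, probe set rule, level limit and replicate block.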

Additional observations from a re-analysis of the deposited data

How the results depend on the processing

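The counts of 82 higher and 133 lower bright genes moved with several choices. Both fell to 0 in the fit of only the 6 arrays, to 5 and 24 with array weights and, with the replicate block, to 2 and 11. They rose to 240 and 264 with an intensity trend and robust hyperparameters, to 173 and 328 with log2(intensity + 50), and to 177 and 278 with genes under the 40th percentile left out. With arrays centred on the median of all probe sets they were 126 and 67. The lower count was 84 after quantile normalization, 71 with arrays centred on the genes tested, 235 with the mean of all probe sets of a gene and 37 for genes at 10 or more over the 6 arrays. With the mean of all probe sets, 68 of the 82 rises and 91 of the 133 falls kept their call, and 2 called genes changed sign. For genes at 10 or more in both groups the counts were 25 and 7. Leaving out 1 array at a time gave 0 to 138 higher and 0 to 337 lower; leaving out ZsG minus mTEC arrays was chosen after seeing the data. Over the alternatives 26 of 152 named genes took both signs, 25 of them not called; the called one was Speg, at −0.042 with the mean of its probe sets. The labels do not say whether the replicate numbers pair the arrays. Deviations of same-numbered arrays of different groups correlated at −0.015 to 0.0132, and those of other arrays at −0.0224 to 0.0114. Noise between arrays could hide a pairing, so these values cannot decide it. The number of arrays limits the precision, and dim values lack detection calls.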

Other observations

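Among the genes bright in both groups, 3 chosen after their values were seen had ZsG minus mTEC arrays well below the ZsG plus arrays. Slc6a7, a proline transporter of neurons, read 83173, 103891 and 105952 in ZsG plus, 6692, 10481 and 24155 in ZsG minus cTEC and 32767, 40804 and 45779 in ZsG minus mTEC. Sspo, SCO-spondin, a secreted brain protein, read 18345, 19256 and 16897, then 1781, 2759 and 3092, then 4907, 4537 and 6262. Macc1, a regulator of MET expression, read 12248, 10916 and 13551, then 2128, 1628 and 1852, then 4168, 4796 and 3262. The arrays of all 3 groups were separated in each gene. Against ZsG minus mTEC the differences were 1.30 ± 0.60, 1.81 ± 0.50 and 1.60 ± 0.49, and none passed (limma adjusted p = 0.390, 0.188 and 0.220). The median of this difference over the 82 rises was 0.23, so these 3 genes do not stand for the rises as a whole.

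Among the 11 falls called with array weights and with the replicate block as well were Synm, Tagln and Nefm, which were chosen after their values were seen. Synm, the intermediate filament protein synemin, read 217, 263 and 233 in ZsG plus and 13452, 10322 and 10349 in ZsG minus cTEC (−5.57 ± 0.50, limma adjusted p = 0.00781). Tagln, transgelin of smooth muscle, read 51.5, 64.8 and 36 against 2085, 2192 and 2848. Nefm, a neurofilament subunit, read 16.6, 61.8 and 18.5 against 2396, 1713 and 2273. On the ZsG minus mTEC arrays these genes read 650 to 1088, 222 to 575 and 806 to 1879.

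Signal was missing from single ZsG plus arrays more often than from others. Of the bright genes with an intensity of at least 1024 on both other arrays of the group, ZsG plus replicate 3 read below 100 in 176 of 4399 (4%), replicate 1 in 25 of 3852 (0.649%) and replicate 2 in 33 of 3903 (0.846%). On the ZsG minus cTEC arrays this count was 0 to 2, of 5756 to 5976 genes.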
